A study of Rattus norvegicus with 6 samples.

Results

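Neuropeptides carry much of the signaling between pain-sensing afferents and the neurons of the spinal dorsal horn, and 10 genes of that system were examined here among the 30957 genes of the table. They were matched by gene symbol to a list that was chosen with earlier results of these data known. It holds the peptide precursors Tac1, Tac3, Calca, Calcb, Sst, Npy, Grp, Nts and Cck, and Tacr1, which encodes the receptor of substance P. Of the 10 genes, 9 had enough counts to be tested, and Npy was listed at 0 in every library. Libraries were made from the ipsilateral side of the lumbar enlargement of female Wistar rats on day 14, with 3 libraries of sham-operated rats and 3 of rats with bone cancer pain (BCP). Rats of the BCP group had received living Walker 256 cells, a rat mammary carcinoma line, in the marrow of the left tibia, and those of the sham group heat-killed cells of the same line, so that both groups had the surgery and the injection of cells. The meninges had been removed. The tissue held dorsal and ventral horn together. The cell bodies of the afferents lie in the dorsal root ganglia, which the study does not name as part of the tissue. No source used here says whether each library came from a separate rat, and the p-values measure the spread between these libraries.

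Peptide precursors are cut into active peptides inside dense core vesicles and released by strong or repeated firing. Substance P, made from Tac1, and CGRP, made from Calca and Calcb, are released by peptidergic nociceptors. Substance P binds Tacr1 on projection neurons of the superficial dorsal horn. CGRP binds a receptor formed by Calcrl and Ramp1. Tac3 (neurokinin B), Sst (somatostatin), Cck (cholecystokinin), Nts (neurotensin) and Grp (gastrin releasing peptide) are made mainly by excitatory interneurons of the dorsal horn, and Npy (neuropeptide Y) by inhibitory interneurons. In the spinal cord itself Calca is also transcribed in motor neurons of the ventral horn.

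The total of counts on genes was 13366905 to 15004290 in sham libraries and 11779485 to 13764758 in BCP libraries. Normalized counts are given as CPM, in which counts are scaled to the size of the library after TMM normalization, and all gene positions are those of the Rnor_6.0 build. Differences were tested with edgeR's quasi-likelihood test over the 14908 genes that passed its filter on low counts, and a gene was called when the Benjamini-Hochberg adjusted p-value lay under 0.05. A second rule, that of the study, added a fold change over 2. By the first rule 1805 of all tested genes were lower in BCP (12.1%) and 2352 higher (15.8%), and by the second 0.107% were lower and 6.35% higher. The split moved with the scaling, to 1262 lower and 2673 higher with library size only, and its balance turned with upper-quartile normalization, to 2401 lower and 2134 higher.

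Of the 9 tested genes 2, Calca and Sst, were called lower in BCP, against the 12.1% of all tested genes that were lower, and none was called higher. No member passed the second rule in either direction. With edgeR's test 4 members had an unadjusted p-value under 0.05, namely Calca, Sst, Tac3 and Calcb. The 3 BCP libraries all lay below the 3 sham libraries for these same 4 genes, an arrangement found for 19.8% of the tested genes, whereas the reverse, found for 21.7%, occurred for none of the 9. The median log2FC of the 9 genes was -0.21, beside -0.01 over all tested genes, and 8 of the 9 had a negative log2FC, as did 52.3% of all tested genes. In bulk tissue, fewer cells of a type and less RNA per cell cannot be told apart.

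**Figure D1:**
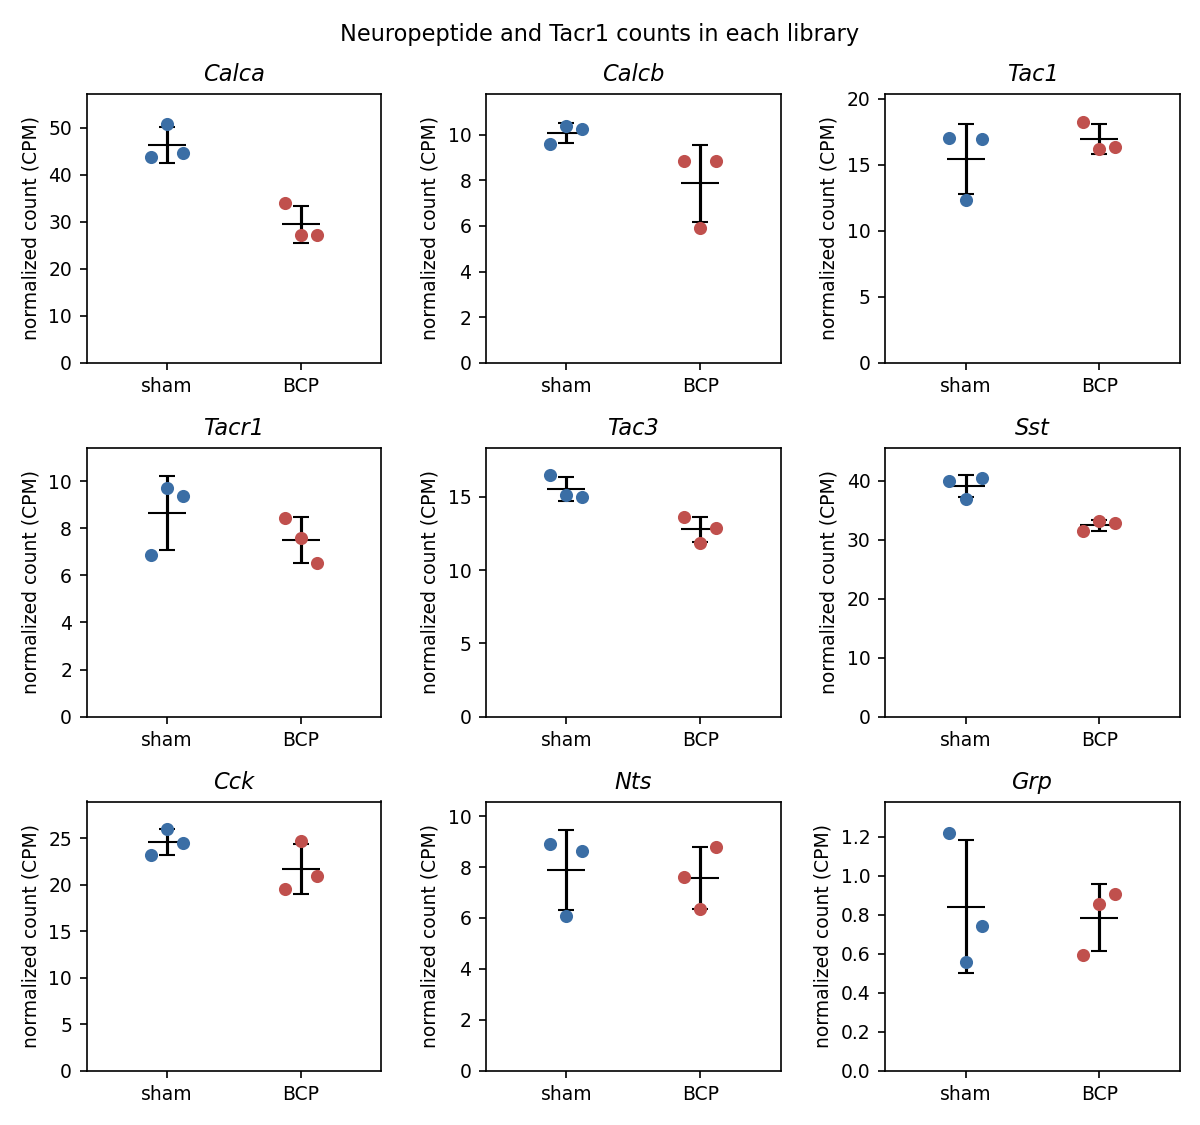
Normalized counts (CPM, vertical axes from 0) of the 9 detected members in each sham (blue) and BCP (red) library, with the mean and SD of the 3 libraries of a group as bars. The BCP points of Calca, between 27.2 and 34.0 CPM, all lie below the sham points, which start at 43.7 CPM, whereas those of Tac1, Tacr1, Cck, Nts and Grp overlap with the sham points.

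Several neuropeptide genes are known targets of the factor CREB, which binds the element TGACGTCA or its core TGACG, and somatostatin is the textbook case. RefSeq promoters (build GRCr8, 250 bases before to 50 after the annotated start) were given for 7 of the members. The core site, TGACG or on the other strand CGTCA, was present in 6 of them, namely Calca, Tac1, Tacr1, Nts, Sst and Grp, and not in Npy, whereas 21.2% of all 33469 promoters held it. The full element, which contains the core site, was present in Sst alone and in 1.83% of all promoters. Windows of 30 bases around the site, on the strand of the gene and with the site in capitals, are shown for the called genes Calca and Sst and, beside them, for Tac1 and its receptor gene Tacr1, which were not called.
Calca (chr1:178317625-178317654, minus strand): ggaagcaccgaggTGACGcaatctgtctgg
Sst (chr11:90461537-90461566, plus strand): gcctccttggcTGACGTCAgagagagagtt
Tac1 (chr4:36645364-36645393, plus strand): ttccctaaaattgCGTCAtttcgaacccaa
Tacr1 (chr4:116478535-116478564, plus strand): agccccttcccagTGACGtctctgcagcgg
The core site was found in called and uncalled members alike. A match describes letters in these windows and not binding.

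Calca, which encodes alpha CGRP and, by alternative splicing, calcitonin, showed the largest difference among the members. The gene (ENSRNOG00000011130) lies on chromosome 1 from 184184020 to 184188911 in Rnor_6.0. Calca had 43.7, 50.8 and 44.6 CPM in the sham libraries 1, 2 and 3 and 34.0, 27.2 and 27.2 CPM in BCP libraries, from 574, 728 and 660 counts against 403, 381 and 360. The highest BCP library was thus lower than every sham library. Calca fell by 36.5%, with a log2FC of -0.66 (standard error 0.09, 95% confidence interval -0.85 to -0.46, adjusted p = 2.69e-05 by edgeR's quasi-likelihood test). The counts are per gene, so that the transcripts of CGRP and of calcitonin were not separated.

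Calcb, the neighbouring gene that encodes beta CGRP, lies on chromosome 1 from 184271590 to 184276475 in Rnor_6.0 (ENSRNOG00000011074). It had 9.60, 10.4 and 10.3 CPM in sham libraries against 8.87, 5.93 and 8.85 CPM in BCP libraries. All BCP values lay below the sham values, but BCP library 2 was far below the other two. The log2FC of -0.36 (standard error 0.16, 95% confidence interval -0.70 to -0.02) did not pass the threshold, with an adjusted p of 0.109 by edgeR's test. Without BCP library 2 the log2FC was -0.19 (adjusted p = 0.481 by edgeR). Calca and Calcb are paralogs, and how the counting divided reads that match both is not given in the sources used here.

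The counts of Calca per count of Calcb were 4.56, 4.89 and 4.34 in sham libraries against 3.84, 4.59 and 3.08 in BCP libraries. These ratios, which do not depend on the scaling of libraries, overlapped between the groups, and their difference of -0.28 on the log2 scale was not detected (exact permutation test, two-sided, p = 0.3, adjusted p = 0.3 over 3 ratios, where 0.1 is the smallest p that 3 against 3 allows). The difference was -0.42 without BCP library 2 and -0.13 without BCP library 3. A larger change of Calca than of Calcb was therefore not shown.

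Tac1, the precursor of substance P and neurokinin A, lies on chromosome 4 from 33638709 to 33646819 (ENSRNOG00000007374). It had 17.0, 12.4 and 16.9 CPM in sham libraries against 18.2, 16.2 and 16.3 CPM in BCP libraries. The groups overlapped, and sham library 2 was the lowest of all. Tac1 was the sole tested member with a positive log2FC, 0.13 (standard error 0.13, 95% confidence interval -0.13 to 0.40, adjusted p = 0.483 by edgeR), and without sham library 2 its log2FC was -0.0058. As a change of the sham level, the interval runs from -8.66% to 31.7%.

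Tacr1, the receptor of substance P, lies on chromosome 4 from 113247795 to 113414504 (ENSRNOG00000005853). It had 6.86, 9.70 and 9.38 CPM in sham libraries against 8.45, 7.57 and 6.51 CPM in BCP libraries. The lowest library belonged to the BCP group and the next to the sham group, so that the groups overlapped. A difference was not detected, with a log2FC of -0.21 (standard error 0.17, 95% confidence interval -0.56 to 0.14, adjusted p = 0.400 by edgeR's test).

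Sst, the precursor of somatostatin, an inhibitory peptide that superficial dorsal horn interneurons release, was the other member called lower. The gene (ENSRNOG00000001837) lies on chromosome 11 from 80358211 to 80359444. It had 40.0, 37.0 and 40.4 CPM in sham libraries against 31.4, 33.1 and 32.9 CPM in BCP libraries. The groups were apart, and the spread within each was small, with 39.1 ± 1.88 and 32.5 ± 0.928 CPM (SD, n = 3). Sst fell by 16.9%, with a log2FC of -0.27 (standard error 0.08, 95% confidence interval -0.43 to -0.10, adjusted p = 0.0138 by edgeR's quasi-likelihood test). Without sham library 3 the adjusted p was 0.0594.

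Tac3, the precursor of neurokinin B, lies on chromosome 7 from 71023976 to 71030582 (ENSRNOG00000004229), within the span that the table gives for Rdh16. It had 16.5, 15.1 and 15.0 CPM in sham libraries against 13.6, 11.9 and 12.9 CPM in BCP libraries. The groups were apart, as for Sst, but the log2FC of -0.28 (standard error 0.12) missed the threshold by edgeR's test, with an adjusted p of 0.0768. With upper-quartile normalization, under which 16.1% of all tested genes were lower, its log2FC was -0.32 and its adjusted p 0.0426. Reads of Tac3 and Rdh16 cannot be separated where the genes overlap on a strand, and whether the counting used strand is not given in the sources used here.

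The counts of Tac1 per count of Tac3 were 1.03, 0.816 and 1.13 in sham libraries against 1.34, 1.37 and 1.27 in BCP libraries. Every BCP ratio lay above every sham ratio, a difference of 0.43 on the log2 scale (exact permutation test, two-sided, p = 0.1, the smallest this design allows, adjusted p = 0.3 over 3 ratios). The counts of Tac1 per count of Tacr1 ranged from 1.27 to 2.48 in sham libraries against from 2.14 to 2.51 in BCP libraries, and the groups overlapped (exact permutation test, two-sided, p = 0.3, adjusted p = 0.3).

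Cck, the precursor of cholecystokinin, a peptide known to oppose opioid analgesia, lies on chromosome 8 from 130120523 to 130127392 (ENSRNOG00000019321). It had 23.2, 26.0 and 24.5 CPM in sham libraries against 19.5, 24.7 and 20.9 CPM in BCP libraries. BCP library 2 lay among the sham libraries and the other two below them. The log2FC was -0.17 (standard error 0.10, 95% confidence interval -0.39 to 0.04, adjusted p = 0.223 by edgeR's test).

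Nts, the precursor of neurotensin, lies on chromosome 7 from 44111151 to 44121130 (ENSRNOG00000004179). It had 8.91, 6.07 and 8.64 CPM in sham libraries against 7.60, 6.35 and 8.78 CPM in BCP libraries, which overlapped almost completely. Its log2FC was -0.06 (standard error 0.18, 95% confidence interval -0.43 to 0.32, adjusted p = 0.858 by edgeR). Grp, the precursor of the peptide that relays itch in the dorsal horn, lies on chromosome 18 from 61563053 to 61576818 (ENSRNOG00000016999). It was the lowest of the detected members, with 16, 8 and 11 counts in sham libraries against 7, 12 and 12 in BCP libraries. At this depth its log2FC of -0.07 had a 95% confidence interval from -0.95 to 0.82 (adjusted p = 0.927 by edgeR). As a change of the sham level, that interval runs from -48.4% to 76.1%.

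**Figure D2:**
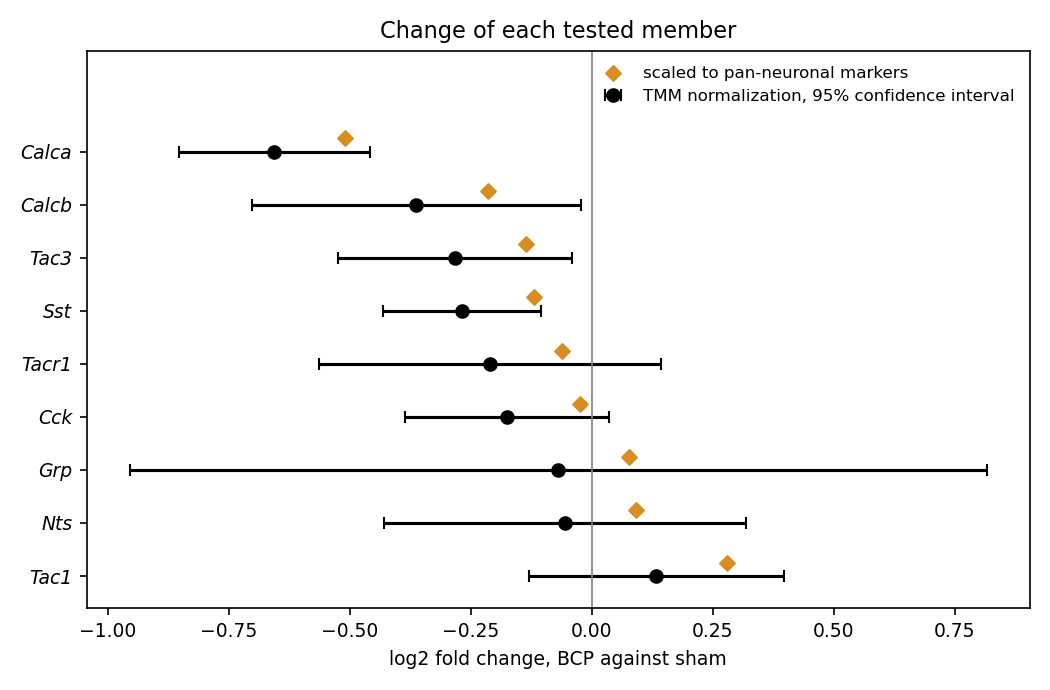
Log2 fold change of the 9 tested members in BCP against sham libraries, with TMM normalization and its 95% confidence interval (black) and after scaling each library to its counts on pan-neuronal markers (orange diamonds). The intervals of Calca and Sst lie furthest from 0 on the lower side relative to their width, and every diamond lies to the right of its black point, with Calca still at -0.51.

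Npy (ENSRNOG00000009768) lies on chromosome 4 from 79557854 to 79565097 and was listed with 0 counts in all 6 libraries. A count of 0 allows up to 0.200 to 0.255 CPM by counting error alone, taking 3 counts as the floor. Npy1r, a receptor of neuropeptide Y, was detected with 13.1 ± 1.82 CPM in sham libraries against 13.8 ± 1.28 in BCP libraries (SD, n = 3). Col1a2 was also listed at 0 in every library, although Col1a1, whose product forms the same collagen, had 26.3 ± 6.89 CPM in the sham libraries (SD, n = 3), and Pcsk1n, which encodes an inhibitor of a precursor convertase, was at 0 as well. Whether such a 0 reflects absent transcripts or the annotation and counting was not tested.

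**Figure D3:**
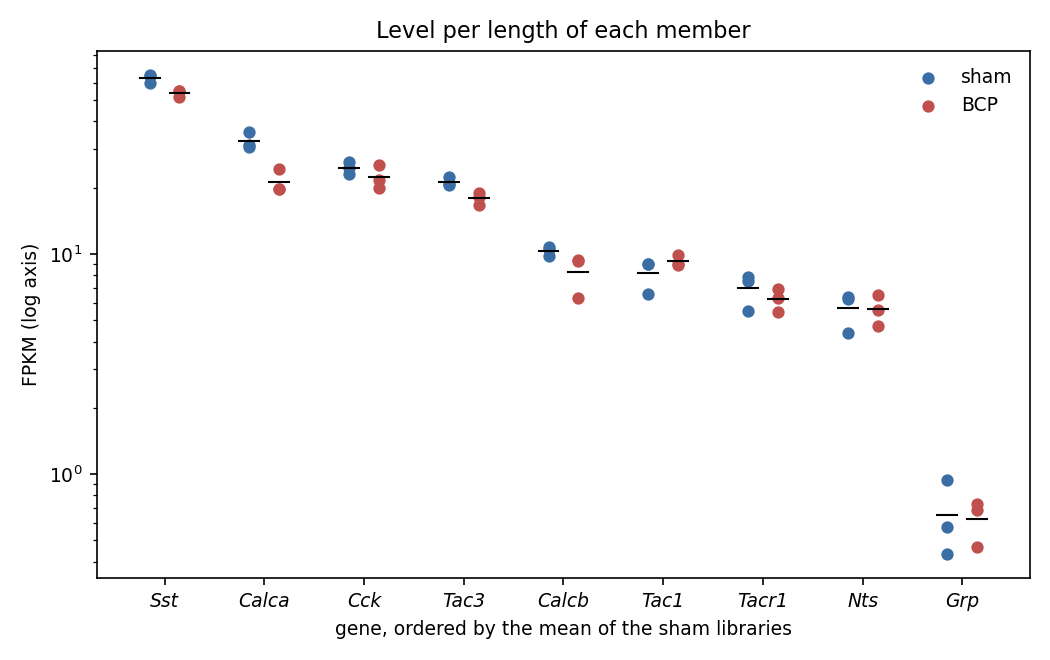
Deposited FPKM (log axis) of the 9 detected members in each sham (blue) and BCP (red) library, with a line at the mean of each group, ordered by the sham mean. Sst is highest, at 63.0 FPKM in the sham libraries, and Grp lowest, at 0.651, and Calca lies above Cck in the sham libraries but among the Cck values in BCP libraries.

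FPKM values are per length of the gene model and allow the levels of the members to be ordered. In the sham libraries Sst had the highest mean, 63.0 ± 2.90 FPKM, followed by Calca with 32.6 ± 2.81, Cck with 24.5 ± 1.48, Tac3 with 21.2 ± 1.02 and Calcb with 10.4 ± 0.475 (SD, n = 3). The ranges of these neighbours did not overlap. Below them Tac1 had 8.19 ± 1.40 FPKM, Tacr1 6.97 ± 1.28 and Nts 5.65 ± 1.11, and each of these overlapped with the next, whereas Grp stood apart at 0.651 ± 0.262 (SD, n = 3). In the BCP libraries Sst was again first with 53.8 ± 1.94 FPKM, but Cck, with 22.3 ± 2.87, and Calca, with 21.3 ± 2.67, overlapped (SD, n = 3). Tac1, with 9.24 ± 0.549 FPKM, and Calcb, with 8.31 ± 1.77, also overlapped in BCP (SD, n = 3).

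Most receptors of the member peptides showed no difference that passed the test. Of 21 such genes 17 were tested, 1 was called higher and 1 lower, and the median log2FC was -0.08. For this list and those below, the shares over all tested genes were 15.8% higher and 12.1% lower. Calcrl, the CGRP receptor subunit that also serves adrenomedullin, had 84.3, 80.7 and 89.6 CPM in sham libraries against 106, 104 and 111 in BCP libraries, and was higher with a log2FC of 0.34 (adjusted p = 0.000118 by edgeR). Its partner for CGRP, Ramp1, had 8.16 ± 0.369 CPM in sham libraries against 6.67 ± 0.227 in BCP libraries (SD, n = 3), and its log2FC of -0.29 did not pass (adjusted p = 0.177 by edgeR's test). Sort1, a sorting receptor that binds neurotensin, was lower, from 774 ± 12.8 to 642 ± 19.0 CPM (SD, n = 3), with a log2FC of -0.27 (adjusted p = 4.25e-05 by edgeR). Grpr, Tacr3 and Cckbr had log2FC of -0.44, -0.08 and 0.07 and did not pass, and Sstr5 was listed at 0 in every library.

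Among the enzymes and chaperones that process precursors, 3 of 6 tested genes were called lower and none higher. Their median log2FC was -0.11, and 12.1% of all tested genes were lower. Pam, which adds the terminal amide that CGRP and substance P need, had a log2FC of -0.19, the convertase Pcsk2 one of -0.17 and its chaperone Scg5 one of -0.18, with adjusted p-values of 0.00735, 0.0212 and 0.0496 by edgeR. Of 5 dense core vesicle genes tested, Chga, the chromogranin that helps form these vesicles, was lower, from 222 ± 3.93 to 192 ± 13.0 CPM (SD, n = 3). Chga had a log2FC of -0.21 (adjusted p = 0.00368 by edgeR), and the other 4 did not pass. All of these differences were under 2-fold, and they depended on the scaling. When libraries were scaled to pan-neuronal markers none of the 4 was called, with log2FC between -0.06 and -0.02, and with library size only Pcsk2 and Scg5 were not called.

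Of 7 tested peptide-degrading enzymes 2 were called higher and none lower, against 15.8% and 12.1% of all tested genes. Nln, a peptidase that cuts neurotensin, had 39.3, 35.3 and 34.6 CPM in sham libraries against 53.6, 58.0 and 53.0 in BCP libraries, with a log2FC of 0.59 (adjusted p = 5.22e-06 by edgeR). Ece1, which cuts substance P and CGRP in endosomes, had a log2FC of 0.18 (adjusted p = 0.0248 by edgeR) and was not called with upper-quartile normalization (adjusted p = 0.0611). None of the 8 tested genes of the list of other spinal peptides, Gal, Adcyap1, Vip, Nmu, Npff, Trh, Cartpt and Adm, was called in either direction, and the median log2FC was 0.01.

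**Figure D4:**
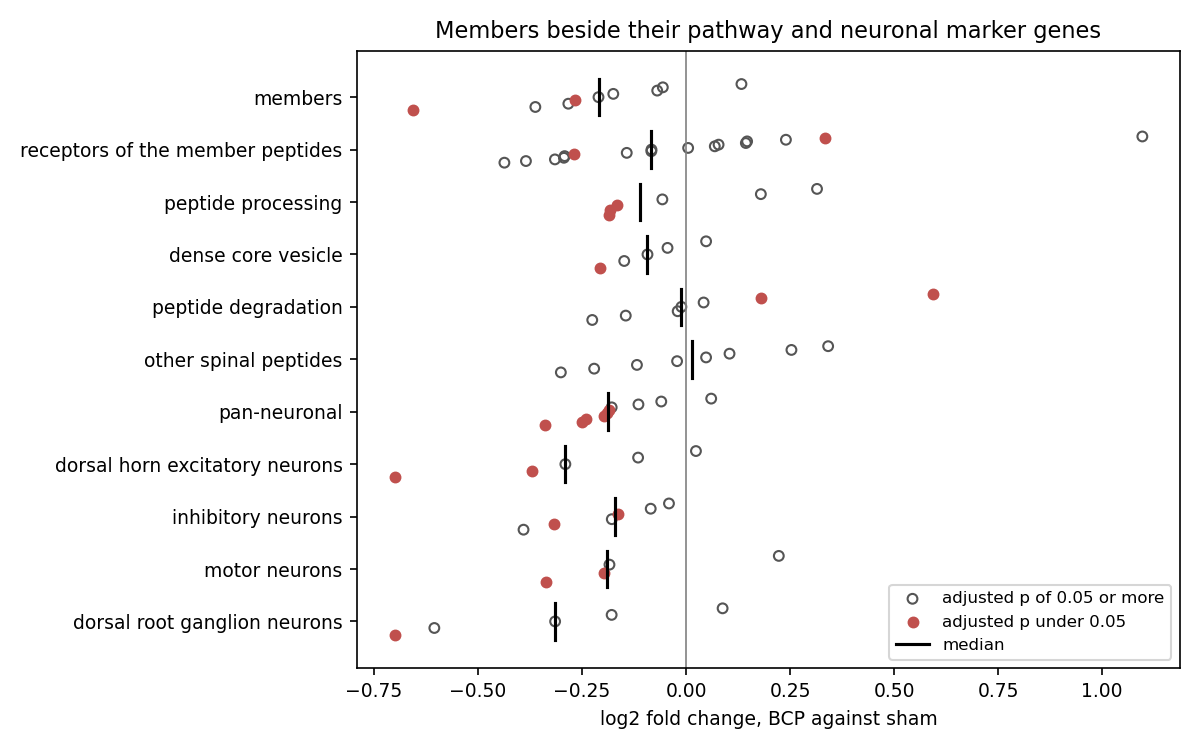
Log2 fold change in BCP against sham libraries of each tested gene, in rows for the members, for 5 lists of pathway genes and for 5 lists of neuronal markers, with called genes filled in red and a bar at the median of each row. The medians of the members (-0.21) and of the pan-neuronal markers (-0.19) lie close together, and Calca, at -0.66, is the lowest point of the members.

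Part of the neuronal markers was lower in BCP. Of 10 pan-neuronal markers 6 were called lower and none higher, with a median log2FC of -0.19 and a summed level of 5307 to 5500.1 CPM in sham libraries against 4780 to 5132 CPM in BCP libraries. Among them Eno2, Map2, Rbfox3 and Tubb3 had log2FC of -0.24, -0.18, -0.34 and -0.25, whereas Celf4, Syt1, Snap25 and Elavl4, at -0.18, -0.11, -0.06 and 0.06, did not pass. When each library was scaled to its counts on these markers in place of TMM, the median of all tested genes moved by 0.15 on the log2 scale, 3883 genes were higher and 333 lower (2.23%), and the values of all 9 members moved up. Calca was still called lower, with a log2FC of -0.51 (adjusted p = 0.000370 by edgeR). Sst was no longer called, with a log2FC of -0.12 (adjusted p = 0.350 by edgeR), and the log2FC of Grp and Nts turned positive, at 0.08 and 0.09. Of the 43 tested genes of the pathway lists 7 were then higher and 1, Sort1, lower, against 3 and 5 with TMM.

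The markers of inhibitory neurons were lower in 2 of 6 tested genes, the vesicular transporter Slc32a1 (log2FC -0.32) and the glycine transporter Slc6a5 (-0.16), whereas Gad1 and Gad2 did not pass. Of 5 tested markers of dorsal horn excitatory neurons 2 were lower, among them Lbx1, a transcription factor of dorsal horn neurons of both kinds, with a log2FC of -0.70. Slc17a6, the glutamate transporter of excitatory neurons, had 220 ± 6.27 CPM in sham libraries against 223 ± 14.5 in BCP libraries (SD, n = 3), with a log2FC of 0.02. When libraries were scaled to pan-neuronal markers none of the markers of either kind of neuron was called lower, and Slc17a6 was called higher, at 0.17 (adjusted p = 0.0173 by edgeR).

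Markers of the cells that are known to transcribe Calca were given beside it. Of 4 tested motor neuron markers 2 were lower, Prph (log2FC -0.34, adjusted p = 0.00226 by edgeR) and the choline transporter Slc5a7 (log2FC -0.20, adjusted p = 0.0439 by edgeR). Chat, which makes acetylcholine, had 63.3 ± 12.4 and 55.7 ± 3.67 CPM (SD, n = 3) and did not pass. Isl1, at a low level, went the other way, with a log2FC of 0.22, and did not pass either (adjusted p = 0.594 by edgeR). With pan-neuronal scaling Prph was still called lower, at -0.19, and Slc5a7 was not. The summed level of the 5 motor neuron markers analysed was 370.1 to 426 CPM in sham libraries against 312 to 372 CPM in BCP libraries.

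Per 100 counts on these motor neuron markers, Calca had 10.96, 11.93 and 12.04 counts in sham libraries against 9.14, 8.48 and 8.73 in BCP libraries. The groups did not overlap, and the difference was -0.41 on the log2 scale (exact permutation test, two-sided, p = 0.1, the smallest this design allows, adjusted p = 0.25 over 5 ratios chosen after the values were seen). Per 100 counts on pan-neuronal markers Calca had 0.853 ± 0.0634 counts in sham libraries against 0.600 ± 0.0553 in BCP libraries (SD, n = 3), and the groups were again apart (exact permutation test, two-sided, p = 0.1, adjusted p = 0.25). The same ratio of Sst was 0.721 ± 0.0416 and 0.663 ± 0.0441 (SD, n = 3) and overlapped (exact permutation test, two-sided, p = 0.3, adjusted p = 0.375).

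Markers of dorsal root ganglion neurons were low, with 14.2 to 17.1 CPM summed over 8 genes in sham libraries against 10.6 to 11.6 CPM in BCP libraries. Of 5 tested, Trpv1, the capsaicin receptor, was lower with a log2FC of -0.70 (adjusted p = 0.0225 by edgeR), and Avil, at -0.61, did not pass. Trpv1 had 61 to 74 counts in sham libraries against 36 to 43 in BCP libraries. With pan-neuronal scaling Trpv1 was not called (log2FC -0.55, adjusted p = 0.072 by edgeR). The defining channel Scn10a was at or under 0.762 CPM in each library, and Mrgprd was at 0 in all. Per 100 counts on this list Calca had 256 to 359 counts in sham libraries against 235 to 305 in BCP libraries, which overlapped (exact permutation test, two-sided, p = 0.5, adjusted p = 0.5). Of the markers of peripheral myelin, which nerve roots carry, Egr2 alone was called, higher, and the summed level was 6.55 to 12.2 CPM in the sham and 5.57 to 8.14 CPM in BCP libraries. The part that such RNA has in the Calca difference was not tested.

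Markers of immune cells moved with the groups in the other direction. Of 7 microglia markers 6 were higher, with a summed level of 182 to 236 CPM in sham libraries against 564 to 678 CPM in BCP libraries. All 6 T cell markers were higher, from 4.88 to 5.79 CPM in sum to 41.3 to 44.7 CPM. Cd4 rose less, with a log2FC of 2.10, than the others, which ranged from 4.95 (Cd2) to 7.71 (Cd3e). Which cells carried Cd4 was not tested, so that the sum is not a measure of T cells alone. None of the 3 tested markers of meninges and fibroblasts was called. Their sum ranged from 27.9 to 47.7 CPM in the sham and from 42.1 to 97.3 CPM in BCP libraries. The highest BCP sum was that of library 1. Col1a1 had 84.0 CPM there, against 33.0 and 26.5 CPM in BCP libraries 2 and 3. The part of immune, meningeal and fibroblast cells in the differences of Calca and Sst was not tested.

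The genes whose pattern over the 6 libraries was most like that of Calca were Osbpl6 and Adcyap1r1, with Pearson's r of 0.997 and 0.996 on log2 CPM, and 498 tested genes had an r over 0.95. For Sst they were Fam198a and S1pr1, with r of 0.997 and 0.995 and 119 genes over 0.95. For Calcb, Magel2 and Zfp184 came first, for Tac3 Cyp4x1 and Neo1, for Tacr1 Cacna1b, for Cck Wdr83os and Zcchc14, for Nts Trim7 and Kcng2, for Grp Ap4m1 and Trim9, and for Tac1 AABR07002768.1 and AABR07017110.1. With 6 libraries in 2 groups such values are reached by many genes, and they are a description only.

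The study took 10 kb as the distance within which a lncRNA may act in cis. Of the 22783 listed lncRNA transcripts none lay within 10 kb of a member gene, and the nearest lncRNA was between 16.0 kb (Tac3) and 364 kb (Npy) away. For Calca the distance was 77.9 kb and for Sst 271 kb. No lncRNA was therefore tested as a neighbour of these genes.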

How the data were processed

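Total RNA libraries, strand-specific and depleted of ribosomal RNA, were sequenced for 3 sham and 3 BCP samples. Per the authors, Seqtk filtered the reads, HISAT2 2.0.4 aligned them to Rnor_6.0 and StringTie 1.3.0 computed expression. They deposited unnormalized counts per gene and per lncRNA transcript, and the authors' FPKM beside them. The program that made the counts and its use of strand are not given in the sources used here.

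The test on counts used edgeR 4.0.16 under R 4.3.3 (filterByExpr, TMM, robust quasi-likelihood fit on condition, Benjamini-Hochberg over all 14908 tested genes). TMM factors ranged from 0.982 to 1.02, and the biological coefficient of variation was 7.72%. Standard errors and 95% intervals come from the fit. FPKM served to order levels and as an alternative for the ratios between members. Ratios within libraries were tested by exact permutation over 20 assignments. The code was tested on simulated data. The floor for a count of 0 covers counting error only, since PCR copies are not independent molecules. Replicates of a group differed by 3.61 to 6.33 times counting noise (chi-square per degree of freedom).

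The members and lists were chosen with earlier results of these data known. All members were named, and from each list at most 4 called genes with the smallest p-values and any gene at 0 in every library, and for each tested member the 2 genes most correlated with it; other names, such as Npy1r, Ramp1 or Chat, were chosen after their values were seen. Vgf and Slc18a3 of the lists were not analysed here. Some genes that this rule names are not reported here. Alternatives were DESeq2 1.42.0, 2 other filters, upper-quartile, library size and pan-neuronal scaling, a replicate block, ratios of FPKM and each library left out. Figures used matplotlib 3.10.9.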

Additional observations from a re-analysis of the deposited data

How the results depend on the processing

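Of 245 values recomputed under alternatives, 223 stayed the same by the following rules. A log2FC had to keep its direction and its side of the threshold, and a count of calls to stay within 1.5 times. For ratios only the direction was compared, and it stayed in every case, so that their side of the threshold was not checked. Calca was called lower under all 13 alternatives, with a log2FC from -0.76 to -0.51 and an adjusted p between 1.45e-07 and 0.000520. With p-values from edgeR, Sst was lost without sham library 3 (log2FC -0.24, adjusted p = 0.0594) and under pan-neuronal scaling (-0.12), and its adjusted p ranged from 0.00548 to 0.350. Tac3 gained a call with upper-quartile normalization (-0.32), where 3 members and 16.1% of all tested genes were lower. The count of members lower in BCP was 1 under pan-neuronal scaling and 1 to 2 with a library left out, and that of members higher was 0 throughout. Among values that were not called, the direction of Grp turned under pan-neuronal scaling (0.0778), without sham library 1 (0.28) and without BCP library 1 (0.09), that of Nts under pan-neuronal scaling (0.0914), without sham library 1 (0.04), without sham library 3 (0.02) and without BCP library 2 (0.0631), and that of Tac1 without sham library 2 (-0.0058). With a library left out the log2FC ranged from -0.293 to 0.276 for Grp, from -0.214 to 0.0631 for Nts and from -0.0058 to 0.208 for Tac1, and, with no change of direction, from -0.459 to -0.185 for Calcb, from -0.349 to -0.118 for Tacr1 and from -0.278 to -0.099 for Cck. The log2 difference of the ratio ranged from -0.417 to -0.129 for Calca to Calcb, from 0.295 to 0.531 for Tac1 to Tac3 and from 0.0986 (without sham library 2) to 0.579 (without sham library 1) for Tac1 to Tacr1. Genes of the pathway lists were called lower 5 times and higher 3 times, against 1 and 7 under pan-neuronal scaling and 3 lower with library size only, and 2 to 6 lower and 2 to 3 higher with a library left out. Marker genes were called higher 13 times, against 7 with at least 10 counts in every library, and lower 13 times, against 1 under pan-neuronal scaling and 8 to 11 with a library left out. Under pan-neuronal scaling the pan-neuronal markers set the scale themselves, so that their own loss of calls is no independent result. The cause of the other changes was not tested. With the replicate number as a replicate block, 2 members were called lower, and Calca had a log2FC of -0.66 (adjusted p = 0.000136 by edgeR). Same-numbered libraries did not deviate together, with correlations of -0.11, 0.05 and -0.04 over genes, against -0.13 to 0.15 for libraries of unlike number. A pairing by number was therefore not seen, which does not exclude one. The block left 1597 genes lower and 2217 higher in all, against 1805 and 2352. Without BCP library 2, 1226 genes were lower, and with DESeq2 1355. Low counts limit Grp, which had no value with at least 10 counts in every library, and no lncRNA near a member could be given a value.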
